A study of Bos taurus with 7 samples.

Results

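Toll-like receptors (TLRs), their adaptors and the NF-kappaB transcription factors with their inhibitors were described in bovine corpus luteum, the progesterone-secreting gland that forms from the ovulated follicle, on day 4 and day 6 of the estrous cycle. The genes were taken by symbol from a fixed list of 39 names, of which 38 stood in the authors' deposited table of 19539 entries, each on 1 entry, and all 38 carried a test. TLR1 had no entry under that symbol and was not analysed here. Day 4 was represented by 3 libraries and day 6 by 4 libraries of whole luteal tissue from Bos taurus cows. All cows had received the same synchronisation (a progesterone insert left in for 7 days, PGF2α at 25 mg, then GnRH at 86 mcg) and were otherwise untreated, per the labels, which give no breed or age. Day 4 glands came from slaughter and glands after day 6 from colpotomy, surgery through the vaginal wall, per the labels. The route for day 6 itself is not stated there, so the day and a possible change of route cannot be told apart. Nothing in the labels says whether the libraries stem from separate cows, so the p-values speak only of the spread among these samples, which may be technical.

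TLRs recognise microbial molecules and molecules set free by damaged tissue, some at the cell surface and some inside endosomes. They signal through the adaptor MYD88 and kinases of the IRAK family, or through the adaptor TICAM1, to the kinase MAP3K7. From there the signal passes to the IKK complex, which marks inhibitor proteins for destruction and frees NF-kappaB to enter the nucleus. Among the genes that NF-kappaB switches on are those of its own inhibitors, and cytokines, chemokines and adhesion molecules that draw leukocytes into tissue. In the corpus luteum, leukocytes and cytokines take part both in building the gland and in its regression.

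The deposited values are the authors' mean level per day in TPM (a share of all transcripts, scaled by gene length, so that levels of different genes can be compared) and 1 Wald test per gene. Values of the single libraries are not in the table, so it is not known whether the libraries of both days overlap, no standard deviation can be given beside a mean, and the read depth of the single libraries is unknown. Each log2 fold change (day 6 over day 4) is the product of the Wald statistic and the standard error that the table holds, and is printed ± that standard error. Genes with an adjusted p under 0.05 in the authors' deposited table are called changed. In whole tissue, fewer cells of a type and less RNA per cell cannot be told apart.

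Most of the pathway was present on both days and few of its genes changed. The median level of the members was 11.5 TPM on day 4 and 7.80 TPM on day 6, beside 7.18 and 5.52 TPM over all entries. NFKBIA, an inhibitor of NF-kappaB, NFKBIZ, a nuclear I-kappaB protein that mostly acts as a co-activator, and the receptor TLR7 fell from day 4 to day 6, and no member rose. The 3 called of 38 are 7.89%, against 10.4% of all 19485 tested entries called lower in the authors' deposited table. The 0 called higher stand against 4.12% of entries. At an unadjusted p under 0.05 by the authors' Wald test, 5 members were lower and 0 higher. The median log2 fold change of the 38 members was -0.09, beside -0.04 over all tested entries. The share called is thus near that of the whole table.

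In mean TPM, 34 of the 38 members were lower on day 6, beside 65.4% of all entries. The exceptions were TNIP1, MAP3K7, TICAM1 and IKBKG. By fold change only 24 members were negative and 14 positive. Over 10599 entries the fold change from the test exceeded the log2 TPM ratio by a median of 0.21, and the 13 mitochondrially encoded protein genes held 10.3% of all TPM on day 4 and 29.2% on day 6. On each of 4 scalings of the fold change 18 members were negative and 4 positive, and the sign of 16 members differed between scalings. NFKBIA, NFKBIZ and TLR7 were among the 18, as were TLR4 and RELA.

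The count of called members moved with the scaling, and so did the background. With fold changes on the TPM scale, 7 of 38 members were lower and 0 higher, beside 19.7% and 1.53% of all entries, which split into 3829 lower and 299 higher in place of 2020 and 803. Once mitochondrially encoded genes were left out of that scale, 3 members were lower and 1 higher, beside 8.19% and 9.48% of entries (1595 lower and 1848 higher). Centred on the median entry of at least 1 TPM, 4 members were lower and 0 higher, beside 11.1% and 3.36%. At an adjusted p under 0.01, NFKBIA and NFKBIZ were lower and 0 members higher, beside 5.86% and 1.54%. Against a fold of 1.5, the Wald test called 0 members (3 lower and 0 higher at an unadjusted p under 0.05), beside 2.84% of entries lower and 0.282% higher. Among entries of at least 1 TPM 2 of 32 members were lower, beside 12.2% (and 5.96% higher), and of at least 5 TPM 2 of 24, beside 10% (and 6.82% higher). With t in place of normal p-values (5 degrees of freedom), 0 members were called (3 lower and 0 higher at an unadjusted p under 0.05), and so were 0% of all entries in either direction. The members' share lower was near the background share on each of the 4 scalings, which all rest on the same test.

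**Figure D1:**
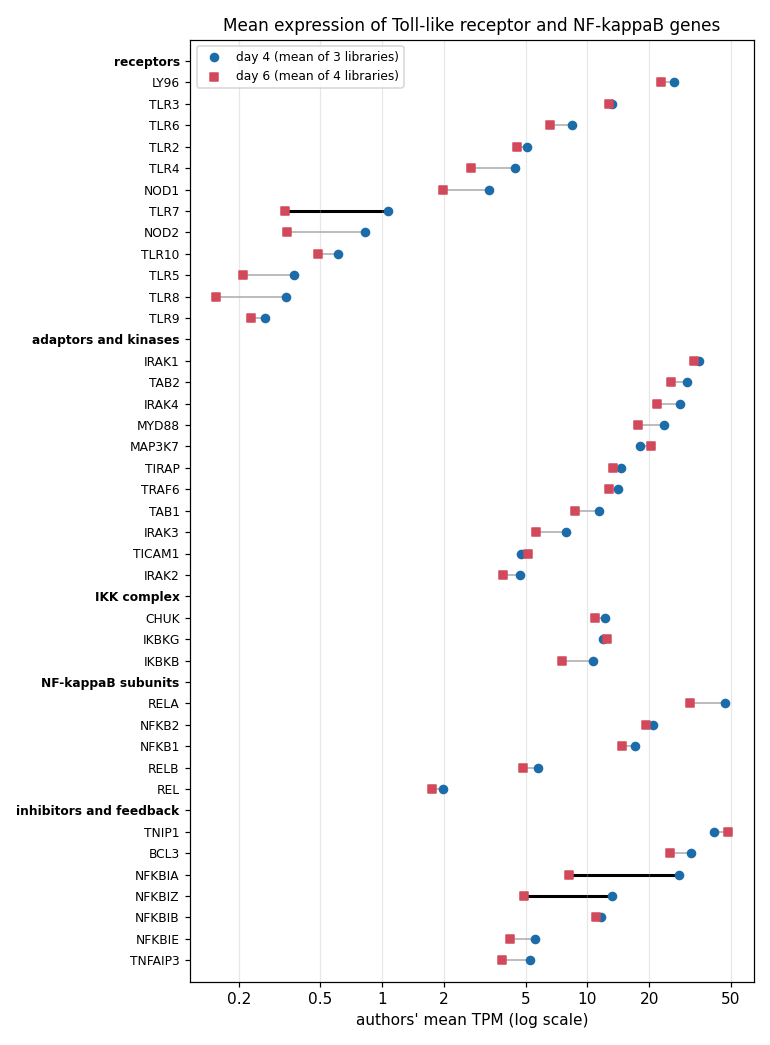
Authors' mean TPM of the 38 genes (horizontal log axis) on day 4 (blue circles, mean of 3 libraries) and day 6 (red squares, mean of 4 libraries), grouped by role and ordered by the day 4 level. A black line joins the means of genes with an adjusted p under 0.05; these are TLR7, NFKBIA and NFKBIZ, and the means of most other genes lie close together.

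The level of a gene differed far more between members than between days. RELA, the main activating subunit of NF-kappaB, had the highest mean on day 4, at 46.6 TPM, and stood in position 3 on day 6, at 31.5 TPM. TNIP1, which helps to switch NF-kappaB signalling off, led on day 6 at 48.4 TPM and was second on day 4 at 41.5 TPM. IRAK1, BCL3 and TAB2 completed the first 5 on both days, at 35.0, 31.8 and 30.5 TPM on day 4 and 33.1, 25.3 and 25.6 TPM on day 6. The lowest members on both days were TLR5, TLR8 and TLR9, all under 0.4 TPM. NFKBIA moved from position 7 to position 19 and NFKBIZ from position 15 to position 24. Since the spread behind each mean is not given, neighbours in this order cannot be separated.

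Among the 12 receptors, only TLR7 was called by the authors' Wald test, beside 10.4% of all entries called lower and 4.12% higher. TLR7, an endosomal sensor of single-stranded RNA, averaged 1.07 TPM on day 4 and 0.335 TPM on day 6 in the authors' deposited table, 68.7% lower. Its log2 fold change was -1.45 ± 0.50, with adjusted p = 0.0332 by the authors' Wald test. The deposited log2 ratio of TPM plus 1 was smaller, at -0.63, because that pseudocount weighs on a gene of about 1 TPM. TLR8, a related RNA sensor, went from 0.341 to 0.155 TPM, with log2 -0.91 ± 0.55 and adjusted p = 0.264 in the authors' deposited table. TLR9, which binds DNA, stood at 0.268 and 0.230 TPM, log2 -0.02 ± 0.57, adjusted p = 0.985 there. The errors of TLR8 and TLR9 were wide: a change of 1.47 or 1.54 on the log2 scale would have been needed to reach the smallest Wald statistic called in the table, which was 2.69 in size.

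TLR3, the endosomal sensor of double-stranded RNA, had the highest mean of the TLRs on both days and differed little between days. TLR6 came next, at 8.42 and 6.58 TPM. TLR3 averaged 13.1 TPM on day 4 and 12.8 TPM on day 6, with log2 0.21 ± 0.21 and adjusted p = 0.538 in the authors' deposited table. The 95% interval of TLR3 ran from -0.20 to 0.62. TLR3 thus held 2.98 times the TPM of TLR4 on day 4 and 4.71 times on day 6, ratios of means that carry no error here.

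TLR4, the receptor for bacterial lipopolysaccharide, came closest to the threshold without passing it. Its means were 4.42 and 2.72 TPM, 38.4% lower on day 6, with log2 -0.49 ± 0.19 and adjusted p = 0.0645 in the authors' deposited table. The call depended on the scaling. With fold changes shifted onto the TPM scale its log2 value was -0.70 with adjusted p = 0.00264 by the Wald test, and centred on the median entry of at least 1 TPM it was -0.52 with adjusted p = 0.0469. Over all alternatives tried for TLR4 the adjusted p ran from 0.00264 to 1. LY96, the MD-2 protein that binds lipopolysaccharide together with TLR4, was far more abundant and not called, at 26.6 and 22.9 TPM, log2 0.01 ± 0.21, with the authors' deposited table giving an adjusted p of 0.985. The LY96 mean exceeded that of TLR4 by 6.01 times on day 4 and 8.43 times on day 6.

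The lipopeptide receptors were found at moderate levels and not called. TLR2 averaged 5.11 and 4.55 TPM, with log2 0.07 ± 0.22 and adjusted p = 0.876 in the authors' deposited table. TLR6, which pairs with TLR2, averaged 8.42 and 6.58 TPM, with log2 -0.12 ± 0.24 and adjusted p = 0.789 there. TLR10, a relative of uncertain ligand, stood at 0.610 and 0.485 TPM, log2 -0.16 ± 0.42, adjusted p = 0.854. TLR6 and TLR10 overlap each other in the RefSeq annotation of ARS-UCD2.0, TLR2 overlaps RNF175 there, and TLR1 is listed there as a synonym of both TLR6 and TLR10. How reads shared by such genes were counted is not stated, so the values of these 3 receptors are uncertain. TLR5, the flagellin receptor, averaged 0.372 and 0.210 TPM, with log2 -0.60 ± 0.57 and adjusted p = 0.516 in the authors' deposited table.

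The cytosolic peptidoglycan sensors had lower means on day 6 and did not pass the threshold. NOD1 averaged 3.32 and 1.97 TPM, with log2 -0.57 ± 0.33 and adjusted p = 0.243 in the authors' deposited table. NOD2 averaged 0.823 and 0.342 TPM, with log2 -1.06 ± 0.52 and adjusted p = 0.156 there. The interval of NOD2, from -2.07 to -0.04, leaves room both for a large difference and for almost none. Of the 12 receptors analysed, 9 had negative and 3 positive fold changes, with a median of -0.32. All 12 had lower mean TPM on day 6, and 6 averaged under 1 TPM.

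**Figure D2:**
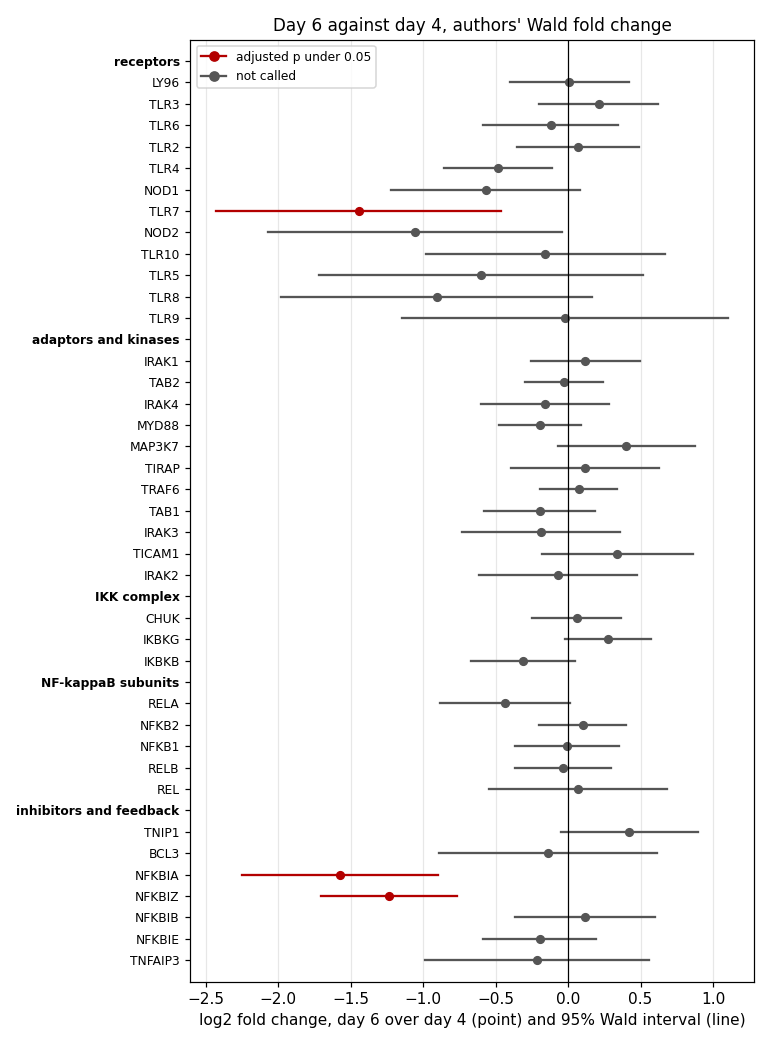
Log2 fold change of each of the 38 genes, day 6 over day 4 (horizontal axis, point), with its 95% Wald interval (line), in the order of the plot of levels. The called genes in red, TLR7, NFKBIA and NFKBIZ, lie to the left of 0; the adaptors, kinases and IKK subunits cluster around 0 with short intervals.

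The adaptors and kinases below the receptors differed little between days. None of the 11 was called by the authors' Wald test, beside 10.4% of all entries called lower and 4.12% higher. At an unadjusted p under 0.05 there were 0 of 11, beside 17.5% of entries lower and 11% higher. Their fold changes lay between -0.20 and 0.40, with a median of -0.03, and each of the 11 had a 95% Wald interval inside ±1 on the log2 scale. MYD88, the adaptor shared by nearly all TLRs and the interleukin-1 receptors, averaged 23.5 TPM on day 4 and 17.7 TPM on day 6, log2 -0.20 ± 0.14, with an adjusted p of 0.378 according to the authors' deposited table. TICAM1, the adaptor of TLR3 and of endosomal TLR4, averaged 4.73 and 5.16 TPM, log2 0.34 ± 0.27, adjusted p = 0.413 there. TIRAP, which brings MYD88 to surface receptors, averaged 14.6 and 13.4 TPM, log2 0.12 ± 0.26. MYD88 thus had 4.96 times the mean TPM of TICAM1 on day 4 and 3.44 times on day 6.

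Within the IRAK kinases, IRAK1 and IRAK4 dominated. IRAK1 averaged 35.0 and 33.1 TPM, with log2 0.12 ± 0.19 and adjusted p = 0.738 in the authors' deposited table. IRAK4, the kinase first recruited by MYD88, averaged 28.4 and 21.9 TPM, log2 -0.16 ± 0.23, adjusted p = 0.694 there. IRAK4 overlaps PUS7L in the RefSeq annotation. IRAK3, an inactive family member that restrains TLR signalling, averaged 7.87 and 5.61 TPM, log2 -0.19 ± 0.28. IRAK2 averaged 4.70 and 3.89 TPM, log2 -0.07 ± 0.28.

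Neither the ubiquitin ligase TRAF6 nor the kinase complex it activates was called. TRAF6 averaged 14.1 and 12.8 TPM, log2 0.07 ± 0.14, with the authors' deposited table giving an adjusted p of 0.773. For TRAF6 a change of 0.37 on the log2 scale would have reached the smallest called Wald statistic. MAP3K7, the TAK1 kinase, averaged 18.1 and 20.3 TPM, log2 0.40 ± 0.24, adjusted p = 0.261 there. Its binding partners TAB1 (11.4 and 8.66 TPM, log2 -0.20 ± 0.20) and TAB2 (30.5 and 25.6 TPM, log2 -0.03 ± 0.14) were not called in the authors' deposited table.

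The IKK complex showed no called change in its 3 genes, beside 10.4% of all entries called lower and 4.12% higher. CHUK, the IKK-alpha kinase, averaged 12.2 and 10.9 TPM, log2 0.06 ± 0.16, with an adjusted p of 0.855 according to the authors' deposited table. IKBKB, the IKK-beta kinase that acts on the inhibitor proteins in the canonical pathway, averaged 10.7 and 7.49 TPM, log2 -0.31 ± 0.18, adjusted p = 0.252 there. IKBKG, the regulatory subunit NEMO, averaged 11.97 and 12.5 TPM, log2 0.28 ± 0.15, adjusted p = 0.209 there. The 3 mean levels were close to each other on day 4. IKBKG overlaps another protein-coding locus in the RefSeq annotation, so its value is uncertain, and it was called higher once mitochondrially encoded genes were left out of the TPM scale (log2 0.40, adjusted p = 0.0459 by the Wald test). IKBKB was called lower on the TPM scale (log2 -0.52, adjusted p = 0.0244).

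All 5 NF-kappaB subunits were present. The authors' Wald test called 0 of 5, beside 10.4% of all entries lower and 4.12% higher. At an unadjusted p under 0.05 there were 0 as well, beside 17.5% of entries lower and 11% higher. RELA averaged 46.6 and 31.5 TPM, 32.3% lower on day 6, with log2 -0.44 ± 0.23 and adjusted p = 0.19 in the authors' deposited table; on the TPM scale it was called (log2 -0.65, adjusted p = 0.0262). NFKB1, the p105 precursor of the p50 subunit, averaged 17.1 and 14.7 TPM, log2 -0.01 ± 0.18, with the authors' deposited table giving an adjusted p of 0.986. REL, a subunit best known from lymphoid cells, was scarce at 1.98 and 1.76 TPM, log2 0.07 ± 0.31, adjusted p = 0.913. RELA therefore had 23.5 times the mean TPM of REL on day 4 and 17.9 times on day 6. The subunits of the non-canonical pathway were NFKB2, at 20.8 and 19.3 TPM, log2 0.10 ± 0.15, and RELB, at 5.75 and 4.86 TPM, log2 -0.03 ± 0.17, in the authors' deposited table.

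Among the 7 I-kappaB proteins and feedback regulators, NFKBIA and NFKBIZ fell and the others were not called. Over all entries, 10.4% were called lower and 4.12% higher. NFKBIA, the I-kappaB-alpha protein that holds NF-kappaB in the cytoplasm and is itself a rapid NF-kappaB target, averaged 27.8 TPM on day 4 and 8.10 TPM on day 6 in the authors' deposited table, 70.9% lower. Its log2 fold change was -1.57 ± 0.35, with a 95% Wald interval from -2.25 to -0.90 and adjusted p = 0.00022. NFKBIZ, a nuclear I-kappaB protein that is induced by TLR and interleukin-1 signalling and helps to switch on later genes such as IL6, averaged 13.2 and 4.91 TPM in the authors' deposited table, 62.9% lower. Its log2 fold change was -1.23 ± 0.24, with an interval from -1.70 to -0.76 and adjusted p = 1.99e-05, the smallest of all 38 members. NFKBIA had 2.39 times the mean TPM of NFKBIB on day 4 and 0.736 times on day 6, so the order of these sister inhibitors was inverted. The TPM ratio of NFKBIA to RELA went from 0.597 to 0.257. These ratios are of group means and carry no error here.

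The remaining genes of this role were not called. NFKBIB averaged 11.6 and 11.01 TPM, log2 0.12 ± 0.25, with an adjusted p of 0.806 according to the authors' deposited table. NFKBIE averaged 5.56 and 4.18 TPM, log2 -0.20 ± 0.20, adjusted p = 0.547 there. TNFAIP3, the A20 enzyme that ends signalling and is also an NF-kappaB target, averaged 5.27 and 3.83 TPM, log2 -0.22 ± 0.39, adjusted p = 0.771. The interval of TNFAIP3 ran from -0.99 to 0.56, so it spans anything from a fold near 2 downward to a small increase. TNIP1, a partner of A20, averaged 41.5 and 48.4 TPM, log2 0.42 ± 0.24, with the authors' deposited table giving an adjusted p of 0.234. BCL3, a nuclear I-kappaB protein that can activate transcription, averaged 31.8 and 25.3 TPM, log2 -0.14 ± 0.38, adjusted p = 0.86 there.

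Immediate early genes, which cells switch on within minutes of many stimuli and of tissue handling, moved with NFKBIA and NFKBIZ, which are rapid response genes too. Of 20 such genes tested, a list added after values were seen, 15 were called lower and 1 (FOSL2) higher, beside 10.4% and 4.12% of all entries in the authors' deposited table. The mean TPM of the 21 genes found, FOSB without a test among them, summed to 1722 on day 4 and 588 on day 6. FOS, of the AP-1 factor, went from 218 to 9.54 TPM, log2 -4.32 ± 0.58, with an adjusted p of 1.16e-10 according to the authors' deposited table. ZFP36, which destabilises cytokine messages, went from 67.3 to 17.2 TPM, log2 -1.77 ± 0.33, adjusted p = 5.96e-06 there. The part of these responses in the falls of NFKBIA and NFKBIZ was not tested.

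Most uncalled members were measured closely enough to bound their change. The standard errors of the 38 members ran from 0.14 to 0.57 with a median of 0.24, beside a median of 0.33 over all tested entries. The 95% Wald interval lay inside ±1 on the log2 scale, a fold of 2 in either direction, for 30 of the 35 uncalled members, and for 41.8% of all entries. Intervals drawn from a t distribution (5 degrees of freedom) met this limit for 23 of the 35. The 5 others in the first count were all receptors: TLR5, TLR8, TLR9, NOD1 and NOD2. These intervals rest on the authors' scaling, and a shift to the TPM scale moves each by 0.21.

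**Figure D3:**
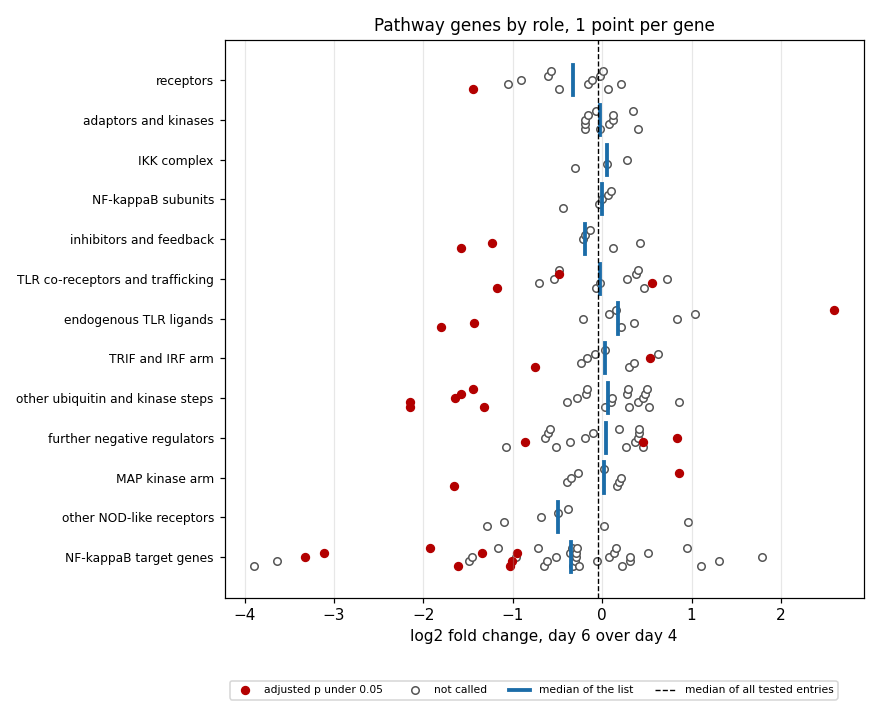
Log2 fold change, day 6 over day 4 (horizontal axis), of each tested gene by role, with 1 point per gene, filled red where the adjusted p was under 0.05. Blue bars mark list medians and the dashed line the median of all tested entries, -0.04; called genes of the ubiquitin and kinase steps and of the NF-kappaB targets lie to the left, while S100A8 stands far to the right.

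Of 126 further genes of the pathway in 8 lists, 21 were called lower (16.7%) and 6 higher (4.76%), beside 10.4% and 4.12% of all entries. With a minimum mean of 5 TPM, chosen after seeing the data, 8 of 77 were lower, beside 10% of entries. Among TLR co-receptors and trafficking proteins, 2 of 13 were lower and 1 higher. CD14, which hands lipopolysaccharide to TLR4 and is also a monocyte marker, fell from 13.0 to 4.90 TPM, log2 -1.17 ± 0.32, with the authors' deposited table giving an adjusted p of 0.00392. CNPY3, a chaperone needed for TLRs to reach their compartments, rose from 40.2 to 50.6 TPM, log2 0.55 ± 0.13, adjusted p = 0.000546 there. Its relative CNPY4 fell from 42.4 to 26.3 TPM, log2 -0.48 ± 0.16, adjusted p = 0.0294 there. The call of CNPY4 was lost when mitochondrially encoded genes were left out of the TPM scale (adjusted p = 0.111 by the Wald test).

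Tissue molecules that can act as TLR ligands went in both directions, 2 of 10 lower and 1 higher, beside 10.4% and 4.12% of all entries. Decorin (DCN), an abundant matrix proteoglycan, fell from 1106 to 358 TPM, log2 -1.43 ± 0.31, with an adjusted p of 0.000222 according to the authors' deposited table. Tenascin C (TNC) fell from 22.2 to 5.53 TPM, log2 -1.80 ± 0.50, adjusted p = 0.00504 there. S100A8, a calcium-binding protein of neutrophils and a TLR4 ligand, rose from 1.98 to 10.6 TPM, log2 2.60 ± 0.82, adjusted p = 0.0175 there. Its partner S100A9 stood at 4.88 and 7.82 TPM and was not called (log2 0.84, with the authors' deposited table giving an adjusted p of 0.498).

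The TICAM1 and IRF branch held 1 gene called lower and 1 higher of 9, beside 10.4% and 4.12% of all entries. Both are kinases of the same family. IKBKE fell from 1.97 to 1.01 TPM, log2 -0.75 ± 0.22, with an adjusted p of 0.00904 according to the authors' deposited table. TBK1 rose from 10.5 to 13.0 TPM, log2 0.54 ± 0.18, adjusted p = 0.026 there, and its call was lost on the TPM scale (adjusted p = 0.207 by the Wald test).

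Of 22 other ubiquitin and kinase steps, 6 were called lower (27.3%) and 0 higher, beside 10.4% and 4.12% of all entries. At an unadjusted p under 0.05 by the authors' Wald test, 7 were lower and 3 higher. The list's median was 0.07, with 12 genes positive and 10 negative. CARD9, a scaffold that links receptors of myeloid cells to NF-kappaB, fell from 2.27 to 0.685 TPM, log2 -1.58 ± 0.57, with the authors' deposited table giving an adjusted p of 0.041, a call lost when mitochondrially encoded genes were left out of the TPM scale (adjusted p = 0.0554). MAP3K14, the NIK kinase that starts the non-canonical pathway, fell from 4.83 to 1.67 TPM, log2 -1.33 ± 0.39, with an adjusted p of 0.00866 according to the authors' deposited table. MAP3K8, a kinase activated downstream of TLRs, fell from 2.73 to 0.881 TPM, log2 -1.45 ± 0.45, adjusted p = 0.0146 there. The IRAK-binding ubiquitin ligases PELI2 (7.66 to 2.19 TPM, log2 -1.65 ± 0.43) and PELI3 (3.08 to 0.384 TPM, log2 -2.15 ± 0.56) fell in the authors' deposited table, with adjusted p = 0.00259 and 0.00283. PELI1 of the same family stood at 24.7 and 30.4 TPM and was not called (adjusted p = 0.233).

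Further negative regulators were called in both directions, 1 of 18 lower and 2 higher, beside 10.4% and 4.12% of all entries. TNIP3, another A20-binding protein, rose from 2.42 to 3.69 TPM, log2 0.84 ± 0.20, with the authors' deposited table giving an adjusted p of 0.00091. RNF11, part of the A20 complex, rose from 50.2 to 59.0 TPM, log2 0.46 ± 0.15, adjusted p = 0.0232 there, and lost its call on the TPM scale (adjusted p = 0.27). COMMD1, which promotes the removal of RELA from chromatin, fell from 53.7 to 25.6 TPM, log2 -0.87 ± 0.29, with an adjusted p of 0.0267 according to the authors' deposited table, and with adjusted p = 0.0577 when mitochondrially encoded genes were left out of the TPM scale.

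In the MAP kinase arm 1 of 9 was lower and 1 higher, beside 10.4% and 4.12% of all entries. MAPK11, the p38-beta kinase, fell from 2.20 to 0.611 TPM, log2 -1.66 ± 0.45, with the authors' deposited table giving an adjusted p of 0.00412. MAPK9, the JNK2 kinase, rose from 20.7 to 31.8 TPM, log2 0.86 ± 0.28, adjusted p = 0.0247 there, and lost its call on the TPM scale (adjusted p = 0.0915). MAPK14, the dominant p38 kinase at 54.8 and 58.7 TPM, was not called (adjusted p = 0.362). Among the other NOD-like receptors the authors' Wald test called 0 of 7, with 3 lower and 1 higher at an unadjusted p under 0.05.

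Outputs of NF-kappaB were called lower or not at all. Of 38 known target genes, 8 were lower (21.1%, beside 10.4% of all entries) and 0 higher (beside 4.12%), with 13 lower and 2 higher at an unadjusted p under 0.05 by the authors' Wald test. Their median log2 fold change was -0.35, and 27 were negative. IL6, an inflammatory cytokine, fell from 2.26 to 0.201 TPM, log2 -3.33 ± 0.66, with an adjusted p of 2.74e-05 according to the authors' deposited table. ICAM1, an adhesion molecule that holds leukocytes on endothelium, fell from 45.1 to 15.6 TPM, with log2 -1.34 ± 0.36 and adjusted p = 0.00399 there. Of the neutrophil-attracting chemokines listed, CXCL3 and CXCL8 fell too, while CXCL2, at 0.107 and 0 TPM, was not called (adjusted p = 0.428 by the authors' Wald test). CXCL3 went from 5.47 to 1.56 TPM (log2 -1.61 ± 0.46, adjusted p = 0.00664) and CXCL8 from 0.372 to 0.0369 TPM (log2 -3.11 ± 1.01, adjusted p = 0.0219), as the authors' deposited table gives them. CXCL8 is thus well under 1 TPM, and its call was lost at an adjusted p under 0.01. Both calls were lost against a fold of 1.5 (adjusted p = 0.223 for CXCL3 and 0.144 for CXCL8 by the Wald test).

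The inducible cyclooxygenase PTGS2 (1.11 to 0.254 TPM, log2 -1.93 ± 0.43), the proteoglycan SDC4 (62.1 to 28.2 TPM, log2 -0.95 ± 0.25) and the transcription factor IRF1 (14.8 to 6.26 TPM, log2 -1.03 ± 0.34) fell as well, with adjusted p of 0.000318, 0.00258 and 0.023 in the authors' deposited table. LTB, a lymphotoxin subunit, completed the 8, from 7.16 to 3.08 TPM, log2 -1.01 ± 0.34, adjusted p = 0.0277 there. The best known proinflammatory targets did not all move. In the authors' deposited table TNF stood at 0.307 and 0.303 TPM, log2 0.22 ± 0.64, adjusted p = 0.862, with an interval from -1.03 to 1.48. IL1B stood at 3.37 and 2.33 TPM, log2 -0.31 ± 0.34, adjusted p = 0.586, and CCL2 at 11.1 and 5.64 TPM, log2 -0.72 ± 0.69, with the authors' deposited table giving an adjusted p of 0.519,. Whether the targets differ from the members was not tested.

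**Figure D4:**
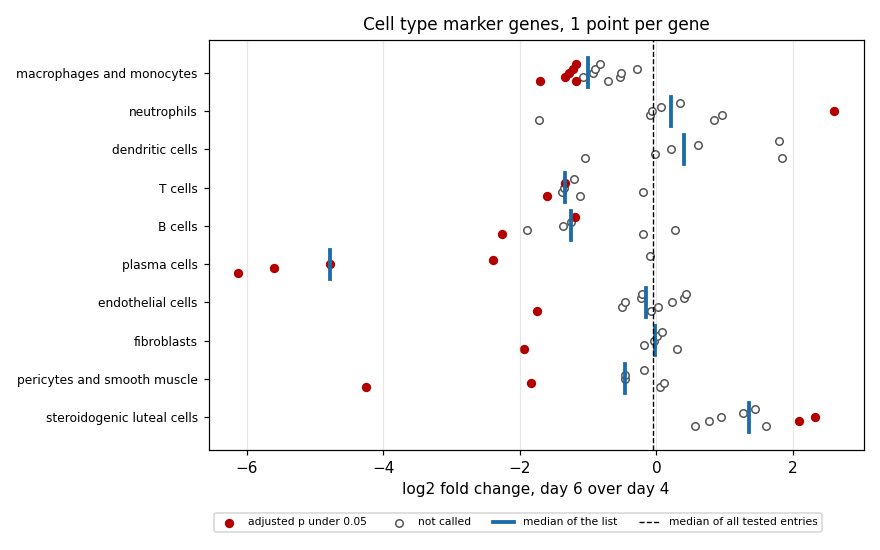
Log2 fold change, day 6 over day 4 (horizontal axis), of each tested cell type marker gene, with 1 point per gene, filled red where the adjusted p was under 0.05, list medians in blue and the median of all tested entries dashed. Markers of macrophages, T cells and plasma cells lie to the left of 0 and those of steroidogenic luteal cells to the right.

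TLRs are carried by macrophages and other leukocytes as well as by tissue cells, and markers of leukocytes were called lower too. Against 10.4% of all entries called lower and 4.12% higher, 6 of 14 macrophage and monocyte markers were called lower and 0 higher, all 14 had negative fold changes (median -0.997), and their summed mean TPM was 191 on day 4 and 79.1 on day 6. None was listed at 0. TYROBP, an adaptor of myeloid receptors, went from 18.2 to 5.16 TPM, log2 -1.70 ± 0.39, with an adjusted p of 0.000453 according to the authors' deposited table. T cell markers were lower in 2 of 7, from 22.1 to 8.94 TPM in sum, B cell markers in 2 of 7, from 6.13 to 2.32 TPM, and plasma cell markers in 4 of 5, from 105 to 16.7 TPM. The part of these cells in the values of TLR7, TLR4, CD14 or CARD9 was not tested. Neutrophil markers summed to 22.1 and 34.6 TPM, with 1 of 8 called higher (S100A8) and 0 lower. By mean TPM, 4 of the 8 were higher on day 6 and 4 lower. The granule enzymes MPO and ELANE were under 0.15 TPM on both days, too little to read a direction from. Of 6 dendritic cell markers the authors' Wald test called 0, with 0 at an unadjusted p under 0.05.

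The genes that define luteal tissue were abundant, since the 8 steroidogenic luteal markers summed to 13589 TPM on day 4 and 25237 TPM on day 6. Of these 8, 2 were called higher and 0 lower, beside 4.12% and 10.4% of all entries. Endothelial markers (1 of 10 lower), fibroblast markers (1 of 6 lower) and pericyte and smooth muscle markers (2 of 7 lower) had medians of -0.15, -0.02 and -0.45. None of these lists had a gene called higher, and the background shares were again 10.4% lower and 4.12% higher. Summed mean TPM went from 379 to 296 for endothelial markers and from 10761.5 to 9729.7 for fibroblast markers. Pericyte and smooth muscle markers went from 1853 to 565 TPM in sum. These sums are shares of all TPM, of which mitochondrially encoded genes held 10.3% on day 4 and 29.2% on day 6. With those genes left out of the TPM scale, the median log2 fold changes were -0.02 (endothelial), 0.11 (fibroblast) and -0.33 (pericyte and smooth muscle).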

How the data were processed

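Messenger RNA of 3 day 4 and 4 day 6 libraries was read once per fragment over 100 nt from stranded libraries, at about 35000000 reads per sample per the labels. FastQC, DESeq2 and the build ARS-UCD1.2 stand in the submitters' processing notes. The aligner, the counting tool and the gene models were all not given in the sources used here. What the authors' deposited table holds is mean TPM per day (the unit was read from the values, as each column sums to 999999), a log2 ratio of these means plus 1, a log2 standard error, a score (the Wald statistic), its p-value and an adjusted p-value. Of 19539 entries, 54 whose deposited p-value is not the two-sided normal p of the score were left out of tests.

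Only the deposited comparison was available, so the planned count model was not run. Log2 fold changes (score times standard error), intervals and alternatives were computed in Python 3.11.15 with scipy 1.17.1. Members, lists and the naming rule (all members by role, called genes of each companion list up to 6, and 7 known NF-kappaB outputs) were chosen with earlier results of these data known. The immediate early, interleukin-1 and non-canonical lists were added, and LTB, IRF1, CXCL2, S100A9, PELI1, MAPK14, TYROBP, MPO and ELANE were named outside the rule, after values were seen. No coordinates are given, since the RefSeq annotation at hand is of ARS-UCD2.0. Of the called companion genes, 1 is not reported here by name.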

Additional observations from a re-analysis of the deposited data

How the results depend on the processing

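The table holds no values per library, so leaving out a library, and DESeq2 or edgeR on counts, were not run. No paired analysis was possible because the columns hold group means only. The 3 members called lower became 7 on the TPM scale, with TLR4, RELA, MYD88 and IKBKB added, and 0 both with t in place of normal p-values (5 degrees of freedom) and against a fold of 1.5 (each with 3 at an unadjusted p under 0.05). The 0 called higher became 1 (IKBKG) once mitochondrially encoded genes were left out of that scale. There the median of the members was 0.03, against -0.09 as reported and -0.31 on the TPM scale. Of the 126 companion genes, 21 were called lower and 6 higher. On the TPM scale 35 were lower and 3 higher, beside 19.7% and 1.53% of all entries. Without the mitochondrially encoded genes 17 were lower and 12 higher, beside 8.19% and 9.48%. With a minimum mean of 5 TPM, chosen after seeing the data, 8 of 77 companion genes were lower and 5 higher, beside 10% and 6.82%. At an adjusted p under 0.01, 14 were lower and 2 higher, beside 5.86% and 1.54%. Against a fold of 1.5, 3 were lower and 0 higher (15 and 1 at an unadjusted p under 0.05), beside 2.84% and 0.282%. With the t distribution 0 were lower and 0 higher (21 and 6 unadjusted), and 0 of all entries were called. NFKBIA and NFKBIZ kept their calls under the other alternatives, and TLR7 lost its call at an adjusted p under 0.01 and averages under 1 TPM. Other alternatives left the counts of members within 1.5 times. Without counts, the limit that depth sets on TLR5, TLR8 and TLR9 is unknown.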

Other observations

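Receptors that share MYD88 with the TLRs, or feed NF-kappaB by other routes, were looked at after values were seen. Of 10 interleukin-1 family receptors, ligands and antagonists, 4 were called lower and 0 higher, beside 10.4% and 4.12% of all entries, with a median log2 fold change of -0.94. This list leaves out the ligands IL1A and IL1B, which stood among the NF-kappaB targets. Neither was called (adjusted p = 0.536 and 0.586 in the authors' deposited table), so the share and the median depend on that choice. IL1R1, the signalling receptor for interleukin-1, fell from 20.4 to 5.10 TPM, log2 -1.81 ± 0.38, with the authors' deposited table giving an adjusted p of 7.99e-05. Its co-receptor IL1RAP stood at 3.12 and 2.70 TPM and was not called (log2 0.02 ± 0.21, adjusted p = 0.952 there). IL33, an alarmin, fell from 12.8 to 4.05 TPM, log2 -1.48 ± 0.42, adjusted p = 0.00688, and its receptor IL1RL1 from 0.458 to 0.0523 TPM, log2 -2.97 ± 0.89, with an adjusted p of 0.0113, according to the authors' deposited table. IL1RN, the antagonist of the interleukin-1 receptor, fell from 2.27 to 1.53 TPM, log2 -0.94 ± 0.31, adjusted p = 0.0247 there. Its TPM means lie closer together than this fold change, and the deposited log2 ratio of TPM plus 1 was -0.37. Why these measures differ for IL1RN was not tested.

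Of 11 receptors and ligands of the non-canonical route, 3 were called lower and 0 higher, beside the same background shares of 10.4% and 4.12%. The receptor CD40 stood among the NF-kappaB targets instead and was not called (3.65 and 3.51 TPM, adjusted p = 0.852 in the authors' deposited table). Calls in the lists added after values were seen were not run under the alternatives. TNFRSF11A, the RANK receptor, fell from 0.672 to 0.152 TPM (adjusted p = 0.0097), TNFSF14 from 0.493 to 0.0736 TPM (adjusted p = 0.0458) and TNFRSF4 from 6.21 to 2.12 TPM (adjusted p = 0.0314) in the authors' deposited table. LTBR, the lymphotoxin receptor, stood at 46.7 and 31.8 TPM and was not called (adjusted p = 0.309 there).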
